A study of Mus musculus with 24 samples.

Results

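This set holds 10 genes that mark mast cells, basophils and eosinophils: Cpa3, Cma1, Mcpt8, Fcer1a, Ms4a2, Hdc, Gata1, Gata2, Prg2 and Epx. They were chosen on the log2 ratios of these arrays, for higher values in IL-4-treated STAT6 KO cultures, and every probe set that the platform annotation pairs with only 1 of these symbols was kept. This gave 13 probe sets for the 10 genes, out of 45037 probe sets tested and 18193 named genes. Ms4a2, Hdc and Gata2 had more than 1 probe set each. All that sets the IL-4-treated KO arrays apart for these genes therefore belongs to the choice, and it is given below as a description without a test.

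Mast cells, basophils and eosinophils are rare, granule-bearing cells of the blood-forming lineage that take part in allergic and anti-parasite responses. Mast cells and basophils carry the high-affinity receptor for IgE and release histamine and proteases from their granules, whereas eosinophil granules hold cationic proteins such as major basic protein and a peroxidase. The transcription factors GATA-1 and GATA-2 act in the development of these cells and also of red cells and platelets.

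The arrays measured bone marrow-derived macrophages from C57Bl/6 mice, 3 wild-type (WT) and 3 STAT6 KO. STAT6 is the transcription factor activated through the IL-4 receptor, and rosiglitazone (RSG) binds and activates PPARγ, a nuclear receptor. Marrow from the femur was kept for 10 days, all cultures received M-CSF at 20 ng/ml, and each mouse gave 4 cultures: control with vehicle, control with 1 µM RSG, IL-4 at 20 ng/ml with vehicle, and IL-4 with 1 µM RSG. This made 24 arrays in 8 groups of 3, with mice 1 to 3 WT and mice 4 to 6 KO. The KO mice came from a commercial supplier and lack STAT6 in all cells of the marrow, not in macrophages alone. No step that purifies macrophages is named in the sources used here, and the ages of the mice are not given there. Each value is a ratio to the median of the same probe set over the arrays, given here on the log2 scale, so 0 is that median for 10 of the 13 member probe sets. The median ratio was 0.851 for Mcpt8 and 0.648 (1451796_s_at) and 0.894 (1454713_s_at) for Hdc, for reasons not given in the sources used here. No absolute level is known, and levels of different genes cannot be set against each other. Precision is limited by the number of arrays.

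Upstream sequences of 9 of the 10 genes were read from RefSeq on build GRCm38.p6 (10 starts, as Gata2 has more than 1), and the 250 bases before each start were searched. They are shown because GATA factors are themselves members of the set. The motif was searched on either strand as AGATAA, under the variant spelling AGATAG, and with a leading T as TGATAA and also as the spelling TGATAG. It lay in 5 of the 10 regions, against 26.5% of 32851 mouse promoters of the same length. The gene with the most matches was Ms4a2, with 3 in the searched window, where 6.4% of all promoters had 2 or more. The letters TTCNNNGAA, a STAT motif searched on both strands, were in 0 of the 10 regions, against 7.02% of all promoters, and the form with 1 more N, to which STAT6 is known to bind, was also in 0, against 5.85%. A match of letters is a description and not a binding site. The last 150 bases before the start are printed 5′ to 3′ on the gene's strand for 4 genes with the motif and for Mcpt8, which had none in its window. Capitals mark the motif, which reads TTATCT or CTATCT where it lies on the opposite strand.
Fcer1a (chr1:173227230-173227379, minus strand): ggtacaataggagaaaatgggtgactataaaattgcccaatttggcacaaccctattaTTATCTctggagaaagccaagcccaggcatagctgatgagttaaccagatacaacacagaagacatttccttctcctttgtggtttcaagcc
Ms4a2 (chr19:11623720-11623869, minus strand): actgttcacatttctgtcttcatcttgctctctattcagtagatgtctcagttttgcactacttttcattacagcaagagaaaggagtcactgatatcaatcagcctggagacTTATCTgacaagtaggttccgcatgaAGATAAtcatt
Cpa3 (chr3:20242182-20242331, minus strand): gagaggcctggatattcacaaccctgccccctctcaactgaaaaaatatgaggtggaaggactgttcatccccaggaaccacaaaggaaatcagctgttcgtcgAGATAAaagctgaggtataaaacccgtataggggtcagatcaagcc
Cma1 (chr14:55944676-55944825, minus strand): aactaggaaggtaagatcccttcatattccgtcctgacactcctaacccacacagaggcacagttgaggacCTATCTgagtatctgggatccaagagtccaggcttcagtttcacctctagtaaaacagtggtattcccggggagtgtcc
Mcpt8 (chr14:56085198-56085347, minus strand): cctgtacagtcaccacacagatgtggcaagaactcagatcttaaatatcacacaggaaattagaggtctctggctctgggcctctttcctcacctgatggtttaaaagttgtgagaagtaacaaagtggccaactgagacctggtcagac
Counted from the start, the motif of Cpa3 spanned -46 to -41, that of Cma1 spanned -79 to -74 and that of Fcer1a spanned -92 to -87. Ms4a2 held it at -37 to -32 and -11 to -6, and again at -224 to -219 outside the printed stretch. In Hdc it lay at -221 to -216.

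The genotype labels were checked first. On both Stat6 probe sets the log2 ratio was 0.71 to 1.15 on the 12 WT arrays and -2.12 to -1.48 on the 12 KO arrays, so no array went against its label. Whether the probes fall in the stretch that the KO allele lacks was not looked up. The mean log2 ratio of 7 measured macrophage markers was -0.29 to 0.03 on the IL-4-treated KO arrays and -0.56 to 0.27 on the other 18 arrays. As each value is relative to the median of its own probe set, this mean cannot show whether a culture held macrophages. It also joins unlike genes. On the IL-4-treated KO arrays Fcgr1 was at 0.44 to 1.69 (others at most 0.32) and Mertk at -0.93 to -0.31 (others -0.34 to 0.44). The mean of 5 stromal fibroblast markers reached 2.74 in mouse 2 (WT control, vehicle) and 4.68 in mouse 6 (KO control, RSG), and results were also computed without these arrays.

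For all 13 probe sets, the 6 arrays of IL-4-treated KO cultures lay above every one of the other 18 arrays. This was so for 2.08% of all probe sets, and since the rule chose the members for it, nothing is read from the count. The distance from the lowest of the 6 arrays to the highest of the 18 ran from 1.10 (Gata1) to 6.73 (Mcpt8) on the log2 scale. Within the 6 arrays the values were close, with an SD of 0.12 (Epx) to 0.47 (Cma1), against 0.47 to 2.12 over the other 18. RNA was taken from whole cultures, so more cells of a type and more RNA per cell cannot be told apart.

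**Figure D1:**
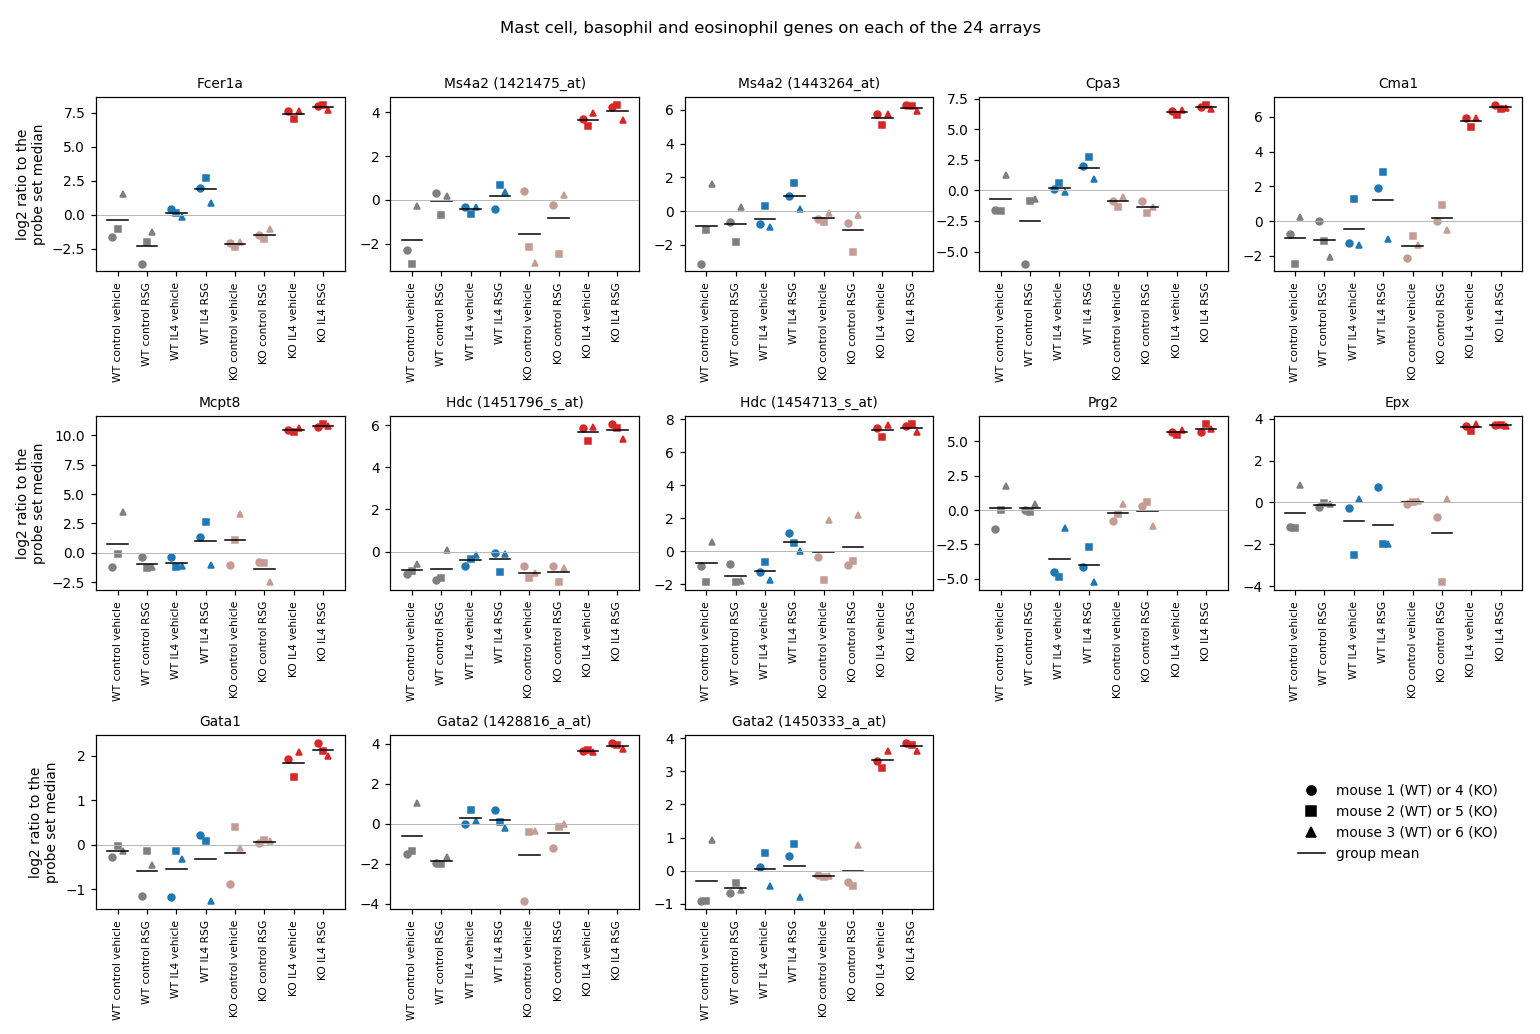
Log2 ratio to the probe set median (y axis, a scale of its own in each panel) of the 13 member probe sets on each of the 24 arrays, by group (x axis); symbols mark the mouse and black lines the group means. The 6 red points of IL-4-treated KO cultures lie above all other points in every panel, by 1.10 for Gata1 and by 6.73 for Mcpt8.

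The α and β chains of the IgE receptor are members, while the γ chain Fcer1g, which other Fc receptors share, is not: it was at -0.20 to 0.03 on the IL-4-treated KO arrays, within the -0.32 to 0.24 of the other 18. Fcer1a, the α chain that binds IgE, was at 7.59, 7.01 and 7.62 on the IL-4 vehicle arrays of KO mice 4, 5 and 6 and at 7.97, 8.03 and 7.68 with IL-4 and RSG. The KO control arrays of the same mice were at -2.06, -2.40 and -1.98 with vehicle and at -1.49, -1.83 and -1.08 with RSG. Fcer1a thus differed by 9.55 on the log2 scale between IL-4 and control in KO vehicle cultures, a 752-fold ratio of geometric means. Ms4a2, the β chain that amplifies the receptor's signal, was measured by a pair of probe sets that gave unequal sizes. On probe set 1443264_at it was at 5.73, 5.11 and 5.76 with IL-4 against -0.47, -0.63 and -0.12 without, and on 1421475_at at 3.67, 3.35 and 3.95 against 0.39, -2.16 and -2.87. IL-4-treated and control KO arrays did not overlap on either probe set.

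The granule proteases held the widest gap. Mcpt8, a serine protease that marks mouse basophils, was at 10.41, 10.23 and 10.61 on the KO IL-4 vehicle arrays and at 10.73, 10.93 and 10.74 with RSG added. The KO control arrays were at -1.05, 1.13 and 3.34 with vehicle and at -0.80, -0.82 and -2.51 with RSG. The highest Mcpt8 value outside the IL-4-treated KO cultures was 3.50, in the WT control vehicle culture of mouse 3. Cpa3, the carboxypeptidase A of mast cell granules, was at 6.51, 6.20 and 6.61 with IL-4 against -0.89, -1.32 and -0.50 without in KO vehicle cultures. Cma1, a chymase of connective tissue mast cells, was at 5.92, 5.44 and 5.91 against -2.12, -0.89 and -1.39. The KO difference was 7.34 for Cpa3, 7.23 for Cma1 and 9.28 for Mcpt8. Cma1 and Mcpt8 lie in a cluster of related protease genes on chromosome 14, where 7 protein-coding genes run from the one to the other. Of these, 5 had a probe set named here (Cma1, Mcpt1, Mcpt2, Mcpt4 and Mcpt8). In each of the 5 the 6 IL-4-treated KO arrays were above the other 18, as for 2.08% of all probe sets. Cma1 and Mcpt8 are members chosen for high values on these arrays, so nothing is read from the count. Related proteases can share probes, and how far these probe sets do was not examined.

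Hdc, which makes histamine from histidine, was at 7.45, 6.89 and 7.65 on probe set 1454713_s_at in KO IL-4 vehicle cultures and at -0.36, -1.72 and 1.89 in their controls. On probe set 1451796_s_at it was at 5.84, 5.24 and 5.89 against -0.67, -1.27 and -1.03. The control arrays of mouse 6 were the highest of their groups on the first probe set, at 1.89 with vehicle and 2.22 with RSG. Even the higher of these was 4.67 below the lowest IL-4-treated KO array.

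Of the eosinophil granule genes, Prg2, which encodes major basic protein, was at 5.63, 5.48 and 5.78 with IL-4 and at -0.80, -0.26 and 0.45 without it in KO vehicle cultures. Epx, the eosinophil peroxidase, was at 3.66, 3.40 and 3.74 against -0.08, 0.04 and 0.08. The difference was 5.83 for Prg2 and 3.59 for Epx. Other eosinophil genes did not all stand apart: Prg3, a relative of Prg2, had its 6 IL-4-treated KO arrays (4.43 to 5.07) above the other 18 (highest 1.29), whereas the surface receptor genes Il5ra, Ccr3 and Siglecf overlapped. Il5ra, the receptor for the eosinophil growth factor IL-5, was at -2.12 to 1.71 on the 6 arrays and at -2.21 to 2.30 on the others.

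Among the GATA factors, Gata1 had the smallest difference of all members. It was at 1.93, 1.51 and 2.08 in KO IL-4 vehicle cultures against -0.87, 0.41 and -0.07 in their controls, a difference of 2.02. Gata2 was at 3.61, 3.67 and 3.56 against -3.88, -0.40 and -0.35 on probe set 1428816_a_at, and at 3.31, 3.09 and 3.62 against -0.13, -0.20 and -0.15 on 1450333_a_at. The difference was 5.16 on the first and 3.50 on the other probe set, and the lowest control value, -3.88, came from mouse 4 on the first alone. Without IL-4 neither probe set rose above 0.77 in KO cultures.

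Over the 13 probe sets the median difference between IL-4 and control in KO was 5.94 with vehicle and 6.40 with RSG, where the median of all probe sets was -0.14 and -0.07. Arrays did not overlap for 13 of 13 in both, which 10.4% and 9.74% of all probe sets showed in the same direction. All 13 were also higher with IL-4 within each of the 3 KO mice, with and without RSG, a count given without its share over all probe sets. Against IL-4-treated WT cultures the KO arrays were higher for 13 of 13 with vehicle (12.0% of all probe sets) and with RSG (11.2%), with medians of 6.06 and 5.24 (all probe sets -0.25 and -0.19). These comparisons share arrays with each other and were used by the rule.

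In IL-4-treated KO cultures the members were on the median slightly higher with RSG than with vehicle, a description without a test. The median difference was 0.36, against 0.03 over all probe sets, and 6 of 13 had RSG arrays above all vehicle arrays (7.06% of all probe sets did): Cpa3, Cma1, Mcpt8, Fcer1a, 1 probe set of Ms4a2 and 1 of Gata2. The largest was Cma1, a difference of 0.79, with 6.67, 6.44 and 6.52 against 5.92, 5.44 and 5.91. Within mice 4 and 5 all 13 were higher with RSG, and within mouse 6 it was 7 of 13. The share of all probe sets higher within each mouse is not given here, so nothing is read from these counts. The KO IL-4 vehicle array of mouse 6 was the highest of its group for 11 of 13 probe sets. Without that array the count of 6 became 10, and with each array centred on its median it became 3. The shares of all probe sets in these settings are not given here.

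In WT cultures, which the rule did not use, IL-4 alone changed 1 of the 13 probe sets, and that change was a fall. By limma with Benjamini-Hochberg adjustment over all probe sets, 12.9% of all probe sets were called (adjusted p under 0.05 with a change of 1.5-fold or more), and 5.94% were called lower. Prg2 was at -1.36, -0.01 and 1.72 on the control arrays of mice 1, 2 and 3 and at -4.52, -4.85 and -1.32 with IL-4. The groups overlapped narrowly, because the IL-4 array of mouse 3 was just above the control array of mouse 1, while the differences within mice 1, 2 and 3 were -3.16, -4.84 and -3.04. The mean difference was -3.68 ± 0.85 (SE, limma adjusted p = 0.00516). This SE rests on a spread shared by all 8 groups, the IL-4-treated KO arrays included. Prg2 varied less on those arrays (SD 0.15 with vehicle, 0.30 with RSG) than in the compared WT groups (1.55 control, 1.95 IL-4). With the 6 arrays fitted alone the fall was not called (limma adjusted p = 0.162).

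The other 12 probe sets had differences between -1.61 ± 1.10 (Mcpt8) and 1.40 ± 0.77 (Ms4a2, 1421475_at) with IL-4 in WT vehicle cultures, and none passed at an unadjusted p under 0.05, as 27.7% of all probe sets did. Their median over all 13 was 0.40, against 0.09 over all probe sets. The WT control vehicle array of mouse 3 stood apart here: it was the highest of its group for 12 of the 13 probe sets, for example 3.50 against -1.22 and -0.11 for Mcpt8 and 1.49 against -1.67 and -1.07 for Fcer1a. With IL-4, 9 of 13 were higher within mouse 1 and within mouse 2, and 1 of 13 within mouse 3, without a share over all probe sets. The Fcer1a difference, 0.56 ± 0.65, was 1.51 without that array (limma adjusted p = 0.0762), 0.23 without the control array of mouse 2 and -0.07 without that of mouse 1, and it was called in none of these.

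In the presence of RSG, IL-4 changed 3 of the 13 probe sets in WT cultures, Fcer1a and Cpa3 upward and Prg2 downward. Here 13.5% of all probe sets were called, 7.87% higher and 5.59% lower, so the 1 of 13 called lower is near the background share. Fcer1a was at -3.60, -2.01 and -1.26 with RSG alone and at 1.98, 2.68 and 0.88 with IL-4 and RSG. The arrays did not overlap, and the difference was 4.13 ± 0.65 (limma adjusted p = 0.000178), a 17.6-fold ratio. The IL-4 and RSG arrays of WT mice lay 6.05 below those of KO mice on average.

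Cpa3 was at -5.98, -0.83 and -0.69 with RSG alone and at 1.97, 2.73 and 0.92 with IL-4 and RSG. Its difference was 4.37 ± 1.02 (limma adjusted p = 0.00495), and 1 array decided the size: without the WT control RSG array of mouse 1 it was 2.63, still called at an adjusted p of 0.0121. With the 6 arrays alone it was not called (adjusted p = 0.171). Prg2 was at 0.01, -0.11 and 0.45 with RSG alone and at -4.15, -2.66 and -5.26 with IL-4 and RSG, a fall in every mouse without overlap of the arrays. The difference was -4.14 ± 0.85 (limma adjusted p = 0.00192).

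**Figure D2:**
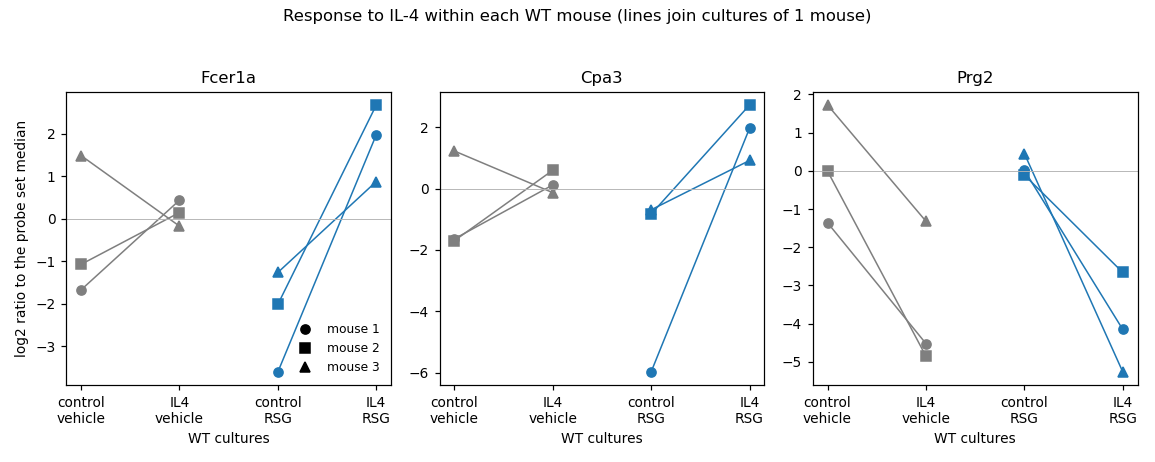
Log2 ratio to the probe set median (y axis, a scale of its own in each panel) of Fcer1a, Cpa3 and Prg2 in WT cultures (x axis), with a line from the control to the IL-4 culture of each mouse, grey with vehicle and blue with RSG. Prg2 falls along all 6 lines, whereas Fcer1a and Cpa3 rise along the 3 RSG lines and fall in mouse 3 with vehicle.

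The remaining probe sets were not called with IL-4 and RSG in WT, although several lay close to the threshold. Gata2 on 1428816_a_at was at -1.97, -2.02 and -1.65 with RSG alone and at 0.67, 0.08 and -0.24 with IL-4 and RSG, without overlap (2.05 ± 0.74, limma adjusted p = 0.0654). It was called with the 6 arrays alone (adjusted p = 0.0184), by the methods' t-test (0.0294) and with a pseudocount of 0.1 (0.0427). The other Gata2 probe set gave 0.69 ± 0.46. Hdc on 1454713_s_at was at -0.78, -1.89 and -1.82 against 1.11, 0.48 and 0.01, again without overlap (2.03 ± 0.83, limma adjusted p = 0.109), and its other probe set gave 0.47 ± 0.35. Cma1 had a difference of 2.30 ± 0.89 (limma adjusted p = 0.0881), which was called at 3.44 without the WT IL-4 RSG array of mouse 3 (adjusted p = 0.00771). That array was the lowest of its group for 10 of the 13 probe sets. In all, 4 of 13 probe sets had IL-4 arrays above the control arrays and 1 had them below, against 20.6% and 13.2% of all probe sets, and the median was 1.64, against 0.06.

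**Figure D3:**
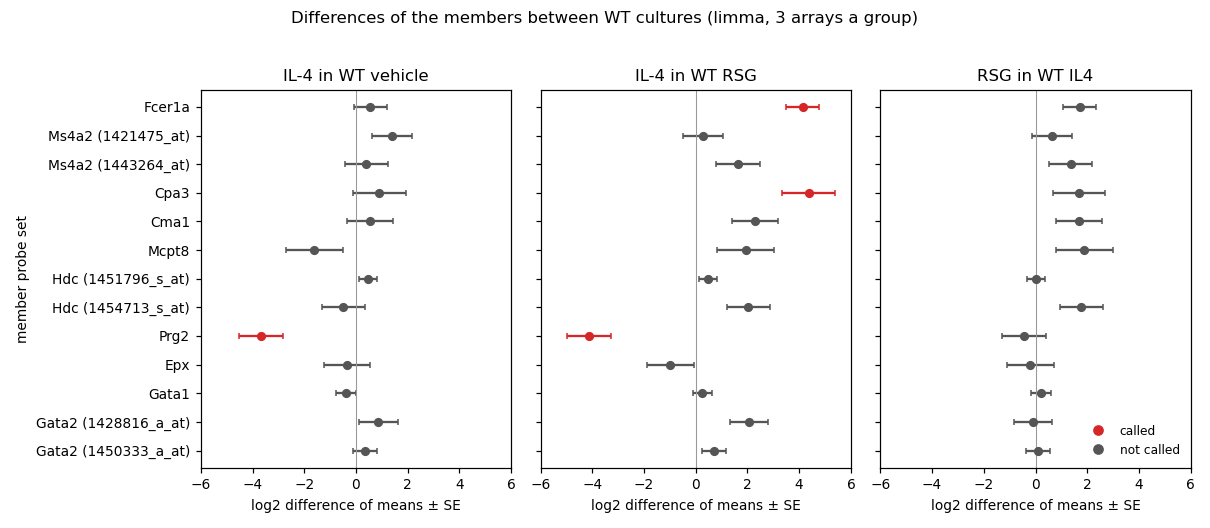
Log2 difference of group means with its SE from limma (x axis) for the 13 member probe sets (y axis) with IL-4 in WT vehicle cultures, with IL-4 in WT RSG cultures and with RSG in IL-4-treated WT cultures, 3 arrays a group; red points were called. Prg2 is called lower in the first and second panels, at -3.68 and -4.14, Fcer1a and Cpa3 are called higher in the second, and no point is called in the third.

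Whether RSG changed the response of the members to IL-4 in WT was tested as an interaction. No member passed (13 probe sets did in all, 0.0289%). The interaction was 3.57 ± 0.93 for Fcer1a (limma adjusted p = 0.318) and 3.47 ± 1.44 for Cpa3 (adjusted p = 0.746), so the rise of Fcer1a and Cpa3 with RSG is not shown to differ from that with vehicle. For Prg2 it was -0.46 ± 1.20.

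RSG itself called none of the 13 probe sets in WT cultures. With IL-4 present 0.688% of all probe sets were called. At an unadjusted limma p under 0.05 there were 2 of 13 (9.01% of all probe sets), Fcer1a (1.70 ± 0.65) and Hdc on 1454713_s_at (1.76 ± 0.83). The methods' t-test gave 3 unadjusted (1949 of all 45037 probe sets) and 0 adjusted (0 of all). Arrays did not overlap for 3 of 13, all higher (6.43% of all probe sets): Cpa3, Fcer1a and that Hdc probe set. Higher values with RSG were found for 12 of 13 within mouse 1, 11 within mouse 2 and 8 within mouse 3. These counts are given without the share over all probe sets, and nothing is read from them. Without IL-4, 0.118% were called, and again 2 members passed unadjusted (7.56% of all probe sets). These were Fcer1a, lower (-1.87 ± 0.65), and Ms4a2 on 1421475_at, higher (1.76 ± 0.77). By the methods' t-test 0 members passed unadjusted (1614 of all 45037 probe sets).

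Without IL-4 no difference between the genotypes passed for these genes. Between KO and WT control vehicle cultures 0 of 13 probe sets were called by limma (0.109% of all were). At an unadjusted p there was 1 (9.2% of all probe sets), Fcer1a, at -2.06, -2.40 and -1.98 in KO against -1.67, -1.07 and 1.49 in WT (-1.73 ± 0.65, limma adjusted p = 0.415). The methods' t-test gave 0 unadjusted (1716 of all 45037 probe sets). With RSG 0 of 13 were called (0.0999%), and 1 passed unadjusted by either test (9.54% of all by limma, 1490 of all 45037 by the t-test). The limma one was Hdc on 1454713_s_at (1.77 ± 0.83, adjusted p = 0.515). RSG in KO control cultures also called 0 of 13 (0.138%), with 1 unadjusted by limma (8.01%), Mcpt8 (-2.52 ± 1.10, limma adjusted p = 0.575). By the methods' t-test 1 passed unadjusted (1474 of all 45037 probe sets). The difference of the RSG response between genotypes called 0 members (0.0111% of all probe sets). The standard errors of the KO and WT difference ranged from 0.35 (Hdc, 1451796_s_at) to 1.10 (Mcpt8). With 3 arrays a group large differences could go uncalled as well as small ones. Examples are Fcer1a between KO and WT control vehicle cultures (-1.73) and Mcpt8 with RSG in KO control cultures (-2.52). The lack of calls therefore does not show that the genotypes are alike without IL-4.

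The members moved together over all arrays and only in part without the IL-4-treated KO cultures. As a description, Pearson's r between genes, each the mean of its probe sets, was 0.66 to 0.98 over the 24 arrays (median 0.90, 45 pairs). That range follows from the choice of the members. Over the other 18 arrays it was -0.55 to 0.88 with a median of 0.31, and 8 of 45 pairs were over 0.5. The highest was Cpa3 with Fcer1a (0.88), followed by Fcer1a with Gata2 (0.71) and Cma1 with Gata2 (0.63). Prg2 ran against Fcer1a (-0.55) and Cpa3 (-0.46) there. Arrays of 1 mouse share their marrow, and the WT control vehicle array of mouse 3 was high for most members.

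**Figure D4:**
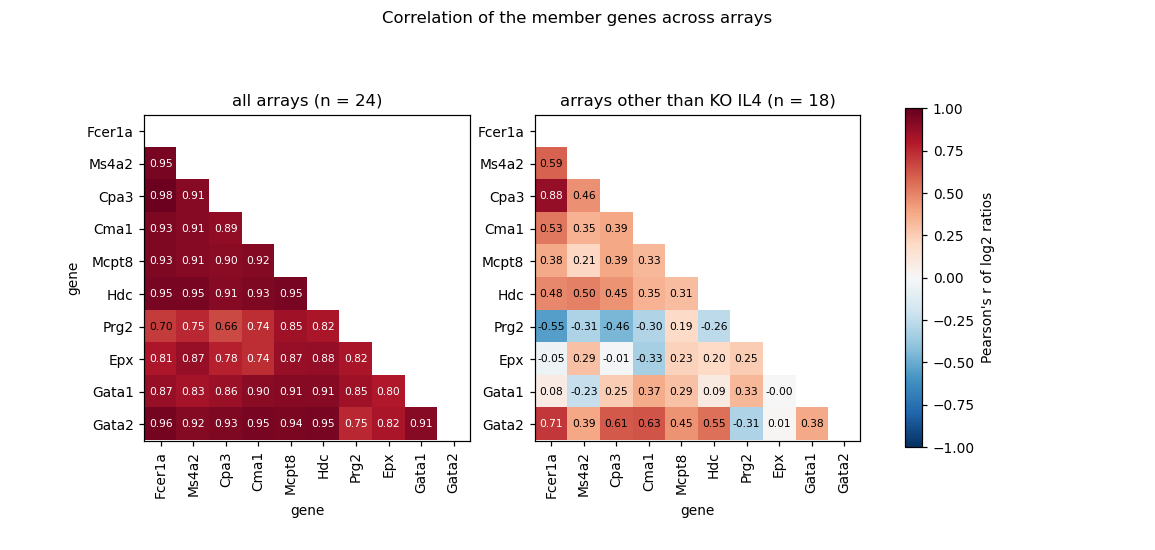
Pearson's r of log2 ratios between the 10 member genes (both axes), over all 24 arrays and over the 18 arrays other than IL-4-treated KO. All pairs are at 0.66 or above over 24 arrays, while over 18 arrays the pair of Cpa3 and Fcer1a stays at 0.88 and Prg2 is at -0.55 with Fcer1a.

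Genes outside the set were ranked by their likeness to the mean profile of the members over the 24 arrays. The nearest were Cyp11a1 (r = 0.986), the enzyme that starts steroid synthesis from cholesterol, then Plac8 (0.978), the granule protease Ctsg (0.978), the leukotriene enzyme Alox5 (0.977), the activation marker Cd69 (0.975), the platelet integrin Itga2b (0.973), the platelet chemokine Ppbp (0.971) and Cd7 (0.968). Each had its 6 IL-4-treated KO arrays above the other 18 on the probe set ranked. The members were chosen for high values on these arrays, which shaped the profiles used for ranking. Nothing is therefore read from this, here or for the single genes below. For Cyp11a1 these were 6.34 to 7.25 against at most 1.95. On its other probe sets the 6 arrays overlapped the other 18, for example at -0.52 to 0.36 against -1.84 to 0.53. The single gene nearest to Fcer1a was Acap1 (0.976), to Cpa3 the vesicular amine transporter Slc18a2 (0.966), to Mcpt8 Ctsg (0.973), to Hdc Plac8 (0.977), to Gata1 the myeloperoxidase Mpo (0.932) and to Prg2 the kinase Stk26 (0.968).

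Other genes of the same cells were taken from lists, members left out, and the IL-4 response in KO vehicle cultures was tested with limma. The lists were chosen with earlier results of these data known, and the IL-4-treated KO arrays also chose the members. List counts that hold these arrays are therefore a description and no separate support for a cell type. Of 21 measured effector genes of mast cells and basophils, 12 rose and 2 fell, where 6.69% of all genes rose and 12.0% fell, and the median was 2.16 against -0.15 over all genes. The largest rises were Gzmb, granzyme B, by 10.10 ± 1.27, Cyp11a1 by 8.04 ± 0.86 on 1 of 3 probe sets, and Cd200r3, a receptor of mast cells and basophils, by 7.38 ± 1.31. Ltc4s, the leukotriene C4 synthase, was lower (-3.28 ± 0.57), as was Hpgds, a prostaglandin D2 synthase (-1.04 ± 0.23). Kit, the stem cell factor receptor, which mast cells carry, rose by 4.00 ± 0.54 and 3.27 ± 0.90 on its probe sets. The tryptase Tpsb2 rose on 1 of 2 probe sets (3.43 ± 0.81, limma adjusted p = 0.0067) and was not called on the other (0.88 ± 0.90). The tryptase Tpsab1 was at -0.48 ± 0.88 and not called. Kit, Tpsb2 and Tpsab1 were singled out after their values were seen.

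The same effector list gave 3 genes higher and 1 lower with IL-4 in WT vehicle cultures (10.7% and 9.14% of all genes), with a median of -0.15 against 0.10. Gzmb rose by 4.58 ± 1.27, from -1.36, -5.87 and -1.29 to 0.65, 1.61 and 2.95, but its call was lost without the control array of mouse 2 (3.06, adjusted p = 0.116) or the IL-4 array of mouse 3 (3.97, adjusted p = 0.0795). Mcpt2, a mucosal mast cell protease, rose by 1.73 ± 0.53, and this call was lost when any 1 of 5 of the 6 arrays was left out. Hpgds fell by 2.49 on the log2 scale (-2.49 ± 0.23). The difference between genotypes was itself called by limma for Gzmb (5.52 ± 1.80, adjusted p = 0.0452), Mcpt2 (4.61 ± 0.75), Hpgds (1.45 ± 0.32) and Cyp11a1 (8.60 ± 1.22).

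Among 7 further eosinophil genes, 2 rose in KO with IL-4 and none fell (6.69% and 12.0% of all genes). They were Prg3, by 5.92 ± 0.78, and the lipoxygenase Alox15, by 4.35 ± 0.91. In WT 2 others rose (10.7% of all genes did), Rnase2a by 9.78 ± 1.56 and the tetraspanin Cd9 by 0.97 ± 0.10. Rnase2a, an eosinophil-associated ribonuclease, was at 10.28, 10.38 and 10.35 in WT with IL-4 and at 0.17, -3.74 and 5.25 without it. In KO it was at -0.19, 0.22 and 0.75 with IL-4, so the highest ribonuclease values were in IL-4-treated WT cultures, which also held the lowest Prg2 values. The Rnase2a call was lost with the 6 arrays fitted alone (adjusted p = 0.0721) and with a variance trend (0.974). The genotype difference of the IL-4 response was called for all 4, at 6.10 ± 1.10 (Prg3), 4.61 ± 1.28 (Alox15), -7.23 ± 2.21 (Rnase2a) and -0.98 ± 0.15 (Cd9).

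Of 17 genes that carry the signal of the IgE receptor, 2 rose and 2 fell in KO, near the shares of all genes (6.69% and 12.0%). The median was -0.07, against -0.15 over all genes. Lat, a membrane adaptor, rose by 2.15 ± 0.25 in KO and by 2.17 ± 0.25 in WT, and Pik3cd by 0.90 ± 0.23 in KO on 1 of 6 probe sets, a call lost without the KO control vehicle array of mouse 5 (0.81, adjusted p = 0.0521). Prkcb (-0.80 ± 0.17) and the kinase Syk (-0.60 ± 0.14) were lower in KO, and Syk fell short of 1.5-fold when the KO IL-4 array of mouse 4 (-0.45) or the control array of mouse 5 (-0.58) was left out. In WT 3 rose and 5 fell (10.7% and 9.14% of all genes). Among them were the kinase Fyn (1.57 ± 0.14), the phosphatase Inpp5d (-0.98 ± 0.11) and Pik3cd (-0.93 ± 0.12). These genes are used by many blood cells, macrophages included.

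Of 17 cytokine and receptor genes of these lineages, 4 rose in KO with IL-4 and none fell (6.69% and 12.0% of all genes). Csf2, which encodes GM-CSF, rose by 3.90 ± 0.74, with 2.46, 2.74 and 3.06 against -0.83, -1.31 and -1.30. Il13 (1.93 ± 0.55) and Il4 (1.87 ± 0.61), which basophils and mast cells secrete, were also called. The Il13 call was lost without the KO control array of mouse 4 or 6 (1.93 and 1.71, adjusted p 0.0558 and 0.0931) or the IL-4 array of mouse 5 or 6 (1.86 and 1.77), and the Il4 call without any 1 of the 6 arrays (adjusted p 0.0598 to 0.133). In WT 6 rose and 2 fell (10.7% and 9.14% of all genes). The IL-9 receptor Il9r was at 2.08 ± 0.62 (lost without any 1 of 5 of the 6 arrays). The GM-CSF receptor chain Csf2ra was at 1.33 ± 0.13, Il13ra1 at -1.91 ± 0.23 and Il4ra at -0.65 ± 0.18. Il4ra lost its call without the control array of mouse 1 or 2 (-0.62 and -0.58) or the IL-4 array of mouse 1 (-0.52).

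Of 18 transcription factor genes of these lineages, 6 rose and 1 fell in KO with IL-4 (6.69% and 12.0% of all genes). Myb, a factor of blood progenitors, rose by 4.72 ± 0.81 in KO and fell by 4.19 in WT on another probe set (-4.19 ± 0.70). Bach2 rose by 1.45 ± 0.29 and Cebpb by 0.93 ± 0.13 in KO, and Cebpa, the myeloid C/EBPα, was lower (-0.83 ± 0.12). In WT 4 rose and 4 fell (10.7% and 9.14% of all genes). Among them were Zfpm1, the GATA partner FOG-1, at 1.79 ± 0.57, Bach2 at 1.16 ± 0.29 and Hes1 at -1.83 ± 0.57. Leaving out any 1 of 5 of the 6 arrays removed the Zfpm1 call, and leaving out the control array of mouse 2 or 3 or the IL-4 array of mouse 2 removed that of Hes1 (-1.71, -1.52 and -1.07).

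Markers of other cells also moved with the members, and their part in the members' rise was not tested. For 6 of 6 neutrophil precursor genes, none of them a member, the 6 IL-4-treated KO arrays were above the other 18. This was so for 2.08% of all probe sets, a share by probe set and not by gene. The plot of marker means shows a list mean of 4.21 to 4.71 on these 6 arrays, against -3.38 to 0.68 on the others. Mpo, the myeloperoxidase of neutrophil precursors, was at 5.45 to 6.24 against at most 0.66. In IL-4-treated WT cultures that list mean was -3.38 to -2.09, below all other groups. Of 6 red cell and platelet markers, Itga2b and Gp9 were above the other 18 arrays (again beside 2.08% of all probe sets). The red cell markers Klf1, Alas2 and Epor overlapped. Among 9 genes of this kind tested in KO, 5 rose and none fell (6.69% and 12.0% of all genes). The largest rises were Ppbp (5.36 ± 0.42), Nfe2 (4.40 ± 0.87) and Gp9 (3.83 ± 0.85). In WT 1 of the 9 was called, Ppbp, at -1.33 ± 0.42 (9.14% of all genes were called lower). The call was lost without the IL-4 array of mouse 1 or 3 or the control array of mouse 2 or 3 (limma adjusted p 0.069 to 0.171).

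**Figure D5:**
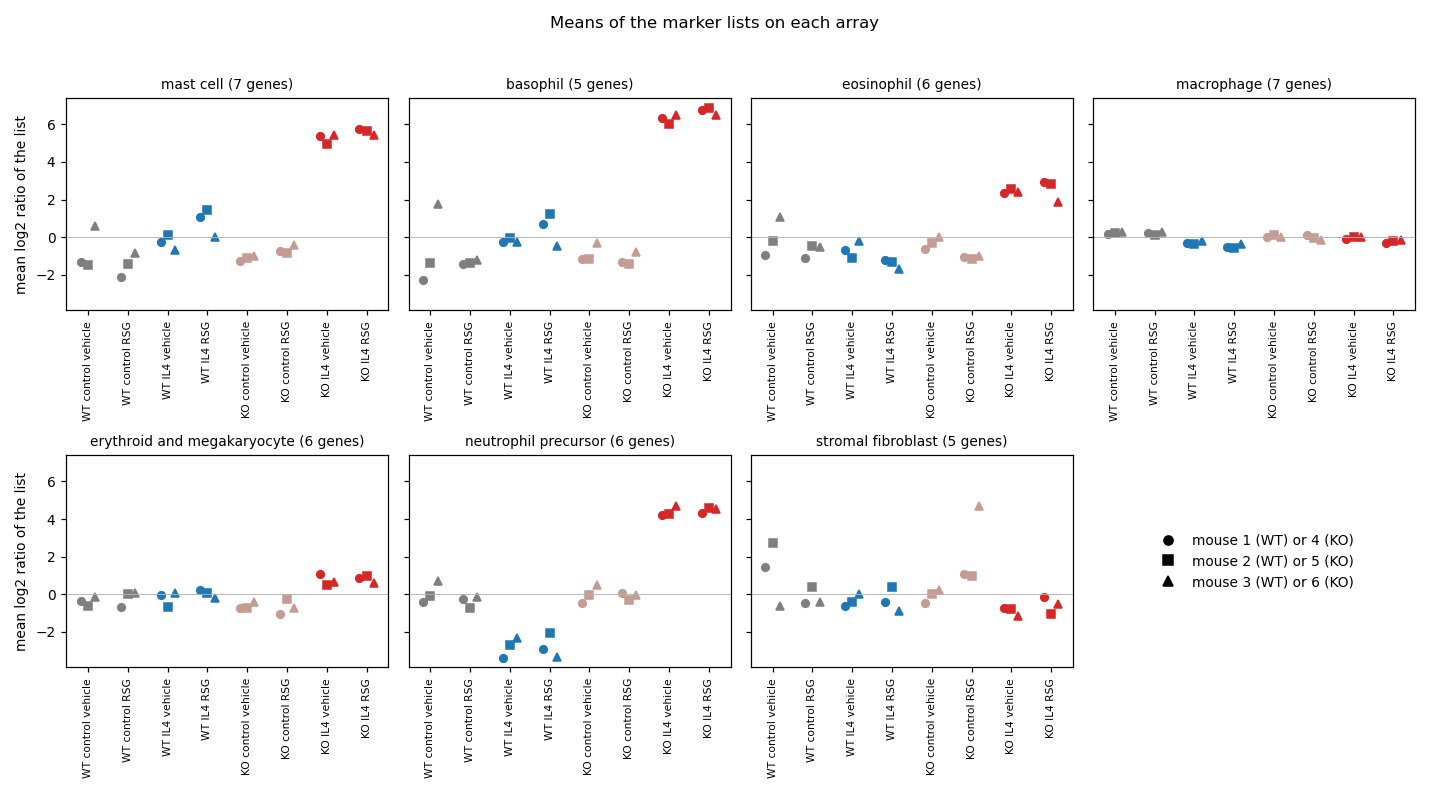
Mean log2 ratio (y axis) of the measured genes of 7 marker lists on each array, by group (x axis), with a symbol for each mouse. The neutrophil precursor mean is 4.21 to 4.71 on the 6 IL-4-treated KO arrays, beside the mast cell and basophil means, which hold members, and the macrophage mean stays between -0.56 and 0.27 on all arrays.

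Macrophage genes also moved with IL-4, in both directions and in both genotypes. Of 11 measured macrophage identity genes, 1 rose and 4 fell with IL-4 in KO (6.69% and 12.0% of all genes). The Fc receptor gene Fcgr1 was higher (1.89 ± 0.25), and the mannose receptor Mrc1 (-1.11 ± 0.20), the uptake receptor Mertk (-0.95 ± 0.13) and the M-CSF receptor Csf1r (-0.75 ± 0.12, 1 of 3 probe sets) were lower. In WT 2 rose and 5 fell (10.7% and 9.14% of all genes). Mrc1 was at 1.01 ± 0.20, Itgam at 0.65 ± 0.18, Cd14 at -2.51 ± 0.16 and Fcgr1 at -2.27 ± 0.25. The Itgam call was lost without the control array of mouse 2 or the IL-4 array of mouse 1 (0.59 in both).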

How the data were processed

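Total RNA of 24 cultures was hybridised to Affymetrix whole-genome mouse arrays, 1 array per culture. The deposited values are linear ratios: the authors ran GC-RMA in GeneSpring, set the 50th percentile of every array to a common value, and related each probe set to its own median. A further division by the vehicle control, named in the methods, is not in the values. The median ratio was 1 for 10 of the 13 member probe sets. Probe sets were named through the platform annotation only where it gives 1 symbol (34945 of 45037, after 64 control probe sets were left out), and groups came from the labels.

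Log2 ratios were fitted with limma 3.58.1 in R 4.3.3 (lmFit and eBayes without a variance trend, all 24 arrays in 8 groups, 16 residual and 1.35 prior degrees of freedom). P-values were two-sided and adjusted by Benjamini-Hochberg over all probe sets, and calls needed an adjusted p under 0.05 with a change of 1.5-fold or more. A gene counted as called when at least 1 probe set was called and none the other way. Members have no test in comparisons that hold IL-4-treated KO arrays, which the rule used. These arrays still enter the spread shared by the 8 groups, on which the other limma tests of members rest. Fits of the compared arrays alone and the methods' t-test leave them out. Summaries and plots were made in Python 3.11.15 (numpy 2.4.6, pandas 2.3.3, matplotlib 3.10.9), and the fit was tested on simulated data. The members and gene lists were chosen with earlier results of these data known. From each list the text names up to 3 genes per direction with the largest called IL-4 change in KO vehicle and up to 2 in WT vehicle cultures.

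The replicate number is the mouse, and 4 cultures came from each mouse, so the numbers pair the arrays. Deviations from the group means of same-mouse arrays correlated at -0.0229 to 0.0462 (36 pairs, 0 over 0.1). Alternatives were the mouse as a block, median centring, quantile normalization, a pseudocount of 0.1, only probe sets with a median ratio of 1, a variance trend, the compared arrays alone, the methods' t-test, and leaving out each compared array. Leaving out both stromal-high arrays was added after the data were seen.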

Additional observations from a re-analysis of the deposited data

Results flagged for a closer look

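Prg2 and Gata1 went in opposite directions in the genotypes: with vehicle they were lower with IL-4 in each of the 3 WT mice and higher in each of the 3 KO mice. With RSG this held for Prg2 and not for Gata1, whose differences in WT mice 1, 2 and 3 were 1.37, 0.22 and -0.81. The WT mean difference was -3.68 for Prg2 and -0.39 for Gata1 with vehicle and -4.14 for Prg2 with RSG. This difference between genotypes was not tested, because the rule used the KO arrays, and the Gata1 difference in WT was not itself called. With vehicle, Gata1 differed by -0.90, -0.11 and -0.16 in WT mice 1, 2 and 3. The share of all probe sets that were lower in every WT mouse is not given here, so nothing is read from the pattern.

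For other genes of the lists, the IL-4 difference in KO minus that in WT vehicle cultures was called by limma, which is what drew attention to them. Among effector genes it was 8.60 for Cyp11a1, 5.52 for Gzmb, 4.61 for Mcpt2 and 1.45 for Hpgds. For eosinophil genes it was 6.10 for Prg3, 4.61 for Alox15, -7.23 for Rnase2a and -0.98 for Cd9. Red cell and platelet genes gave 6.98 for Nfe2, 6.69 for Ppbp and 3.98 for Gp9. Transcription factors gave 8.62 and 6.42 for the called Myb probe sets, 3.45 for Hes1 and -1.18 for Cebpa. Cytokines and receptors gave 2.81 for Il13ra1, 2.37 for Il13 and -1.33 for Csf2ra. Genes of IgE receptor signalling gave 1.34 and 1.17 for Pik3cd probe sets, 0.60 for Inpp5d and -1.61 for Fyn. Macrophage genes gave 4.17 for Fcgr1, 2.94 for Cd14, -0.65 for Mertk and -2.12 for Mrc1.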

How the results depend on the processing

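With IL-4 in WT vehicle cultures 1 member probe set was called, and 0 with the compared arrays alone or by the methods' t-test (Prg2 adjusted p 0.162 and 0.235). With IL-4 in WT RSG cultures 3 were called. By that t-test 1 was, the Gata2 probe set 1428816_a_at (0.0294), and all 3 lost their call (Fcer1a 0.067, Cpa3 0.247, Prg2 0.0521). There Cpa3 had an adjusted p of 0.171 with the compared arrays alone, Fcer1a 0.339 with a variance trend, and the Hdc probe set 1454713_s_at was called without the stromal-high arrays (0.0481). The count of members higher with RSG in IL-4-treated KO cultures was 6, 3 with array median centring, and 10 without KO IL-4 vehicle replicate 6. The shares of all probe sets with this centring or without this array are not given here. With the mouse as a replicate block the same members were called, 1 in WT vehicle cultures (Prg2, adjusted p 0.0088) and 3 in WT RSG cultures (Fcer1a 0.000673, Cpa3 0.00653, Prg2 0.00388). Of the member differences computed under alternatives, 1332 stayed on their side of the threshold, 7 lost a call and 5 gained one. No called difference changed sign, but differences that were not called could (Fcer1a with IL-4 in WT vehicle cultures, 0.56 to -0.07 without WT control vehicle replicate 1). Counts over the gene lists kept within 1.5 times in 181 cases and went beyond it in 29, among them the red cell and platelet genes in WT vehicle cultures (1, or 2 with the mouse block). For the named list genes 606 were kept and 95 calls were lost. No depth is known for these arrays, and with 3 arrays a group small differences could not be detected and large ones could go uncalled. The causes of these changes were not tested.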
